A study of Sus scrofa with 6 samples.

Results

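Cathepsins are the acid proteases of the lysosome, and cystatin C, encoded by CST3, is the secreted inhibitor that blocks the cysteine cathepsins among them. The cathepsins are made as inactive precursors, carried to the lysosome by mannose 6-phosphate receptors or sortilin, and matured there by cleavage at low pH. Macrophages hold large amounts of them, use them to degrade engulfed proteins and lipoprotein particles and to prepare peptides for MHC class II molecules, and can release some of them, so that elastin and collagen of the arterial wall become substrates. Expression of 10 genes of this system, CTSA, CTSB, CTSC, CTSD, CTSH, CTSK, CTSL, CTSS, CTSZ and CST3, was sought by gene name among the 30477 genes of the expression table, and 9 were found. No row carried the name CTSK, the gene of cathepsin K, and it was not analysed here.

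The libraries came from the abdominal aorta of male Wuzhishan pigs, a miniature breed. The NC group was fed normal chow, and the HFCF group was fed chow to which shortening, egg yolk powder, cholesterol and fructose had been added to make it high in fat, cholesterol and fructose, in both cases for 6 months. Of the 5 pigs per group in the study, 3 per group were sequenced, with 1 library per pig, and the libraries are called NC 1 to 3 and HFCF 1 to 3. The pigs had an age of 3 to 4 months by the labels, while the methods put them at 6 to 7 months on acquisition. Total RNA was taken from abdominal aorta tissue, with no separation of cell types or layers given in the sources used here, and more cells of a type cannot be told apart from more RNA per cell.

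Levels are given as FPKM, fragment counts scaled to the exon length of the gene and to the mapped reads of its library, and so can be compared between genes. Read totals were not used here, and the depth behind each value is unknown. Steps between low values gave relative depths of 1.09 and 1.37 for NC 2 and NC 3 and of 1.03 to 1.07 for the HFCF libraries, with NC 1 set to 1. A diet effect is the difference of group means of log2(FPKM + 0.1), HFCF minus NC, and it comes out too small for genes with low FPKM. Its p-value comes from limma, adjusted over the 15384 genes tested, and a gene was called at an adjusted p under 0.05. Diet effects were refitted under 15 other settings, called alternatives here, which include other scalings and each library left out in turn.

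Markers of the labelled tissue were abundant in all 6 libraries, and the 8 contractile smooth muscle genes summed to 15914 to 22729 FPKM in NC libraries and to 7997 to 12892 FPKM in HFCF libraries, with 6 called lower, 4 of them without HFCF 1. All 14 macrophage markers were called higher in the HFCF group, 13 of them without HFCF 1. The sum of the macrophage markers was 112.5 to 121.5 FPKM over the NC libraries and 2752, 1136 and 1075 FPKM in HFCF 1 to 3. CD68, a lysosomal membrane protein of macrophages, ran from 3.65 to 5.67 FPKM over the NC pigs and from 98.0 to 261 FPKM over the HFCF pigs. The library HFCF 1 stood apart, with summed red blood cell markers of 2897 FPKM against 22.0 to 178.7 FPKM in the other 5 libraries. It also had the highest sums of neutrophil markers (94.4 FPKM against 11.9 and 5.4 FPKM in HFCF 2 and 3) and of T and NK cell markers (67.8 FPKM against 31.1 and 31.4 FPKM). Most of the latter sum was NKG7 (58.9, 28.3 and 29.0 FPKM in HFCF 1 to 3). Only CD3G of these markers was not highest in HFCF 1 (0 FPKM, against 1.13 and 0.187 FPKM in HFCF 2 and 3). The diet effect on each of the 9 genes is therefore also given without HFCF 1, and that on other genes where leaving it out changed the call, and for further genes in which HFCF 1 was high. The part of these cell types in the results was not tested.

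Of the 9 genes, 6 were called higher in the HFCF group (CTSS, CTSD, CTSH, CTSC, CTSZ and CST3), and none was called lower, since all 9 log2 fold changes were positive. Among all tested genes, 22.8% were called higher and 6.16% lower, or 28.9% in either direction. These shares depended on the scaling, since the 3505 higher and 948 lower calls became 2035 and 1982 after median-ratio scaling, 1748 and 1782 after quantile normalization, and 2146 and 1539 after rescaling to TPM, while 6 of the 9 genes were called under each. Other settings moved the counts too. Without NC 1 there were 1979 higher and 442 lower calls, and 5 of the 9 genes were called. A replicate block gave 2232 and 540, with 6 of the 9 genes called. The 3 HFCF pigs lay above the 3 NC pigs in 8 of the 9 genes, against 36.1% of all tested genes. By the thresholds of the study, a ratio of group means above 2 and an unadjusted p under 0.05, the same 6 genes were higher, against 20.7% of all tested genes (25.5% in either direction). The median log2 fold change was 1.51 over the 9 genes and 0.32 over all tested genes.

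**Figure D1:**
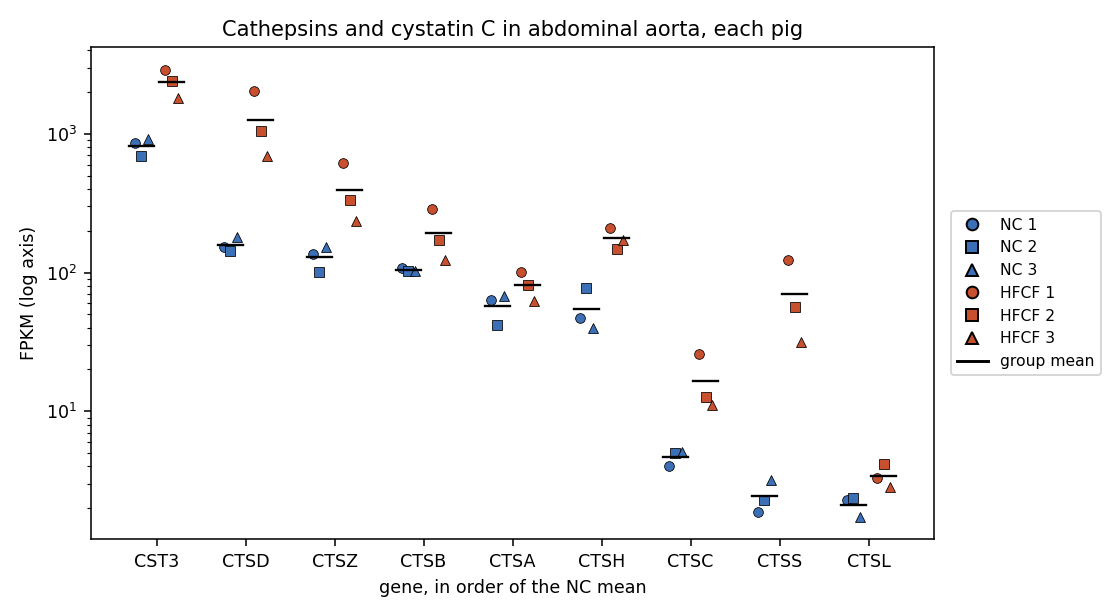
FPKM of 9 genes on a log axis in each of 6 pigs, ordered by the mean of the NC group, with blue points for NC, red points for HFCF, a marker shape for each pig number and a line at each group mean. The HFCF points lie above all NC points in 8 genes, the exception being CTSA, and the distance is widest in CTSS, which moves from 2.44 to 70.2 FPKM.

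Cathepsin D is the aspartic protease of the group, a main protein-degrading enzyme of the lysosome that cystatins do not inhibit. CTSD (ENSSSCG00000040793) measured 154, 142 and 181 FPKM in NC 1 to 3 and 2031, 1048 and 689 FPKM in HFCF 1 to 3. Every HFCF pig was well above every NC pig, with HFCF 1 the highest and HFCF 3 the lowest of its group. The group means were 159 ± 20.1 FPKM (SD, n = 3) and 1256 ± 694 FPKM (SD, n = 3), a ratio of 7.90. The log2 fold change was 2.84 (SE 0.37, 95% interval 1.96 to 3.73, limma adjusted p = 0.00312), and 2.42 without HFCF 1 (adjusted p = 0.00258). Ordered by FPKM among all genes, CTSD stood at place 201 to 275 in the NC libraries and at place 19, 40 and 68 in HFCF 1 to 3. No other gene of the KEGG lysosome pathway had a higher mean level.

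Among the cysteine cathepsins, cathepsin S is the one that stays active at neutral pH, and it trims the invariant chain from MHC class II molecules and degrades elastin. CTSS (ENSSSCG00000006648) measured 1.87, 2.29 and 3.18 FPKM in NC 1 to 3 and 122.7, 56.3 and 31.7 FPKM in HFCF 1 to 3. The lowest HFCF pig was far above the highest NC pig. Means of 2.44 ± 0.669 and 70.2 ± 47.1 FPKM (SD, n = 3 each) gave a ratio of 28.7. CTSS had the largest log2 fold change of the 9 genes at 4.60 (SE 0.47, 95% interval 3.49 to 5.71, limma adjusted p = 0.00153), and it was 4.09 without HFCF 1 (adjusted p = 0.00183). In the order of levels CTSS moved from place 7143 to 8429 in the NC libraries to place 329, 739 and 1348 in HFCF 1 to 3.

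Cathepsin C removes dipeptides from the amino terminus and activates the granule serine proteases of neutrophils, mast cells and cytotoxic lymphocytes. For CTSC (ENSSSCG00000014924) the NC pigs gave 4.03, 5.03 and 5.06 FPKM and the HFCF pigs 26.0, 12.7 and 11.0 FPKM. The groups were separate, and HFCF 1 stood above the other HFCF pigs, which lay close together. The log2 fold change was 1.70 (SE 0.32, 95% interval 0.93 to 2.46, limma adjusted p = 0.0104), with means of 4.71 ± 0.586 and 16.6 ± 8.18 FPKM (SD, n = 3 each). Without HFCF 1 it was 1.32 (adjusted p = 0.00806).

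Cathepsin H is an aminopeptidase with some endopeptidase activity. Its gene CTSH (ENSSSCG00000001770) was at 47.4, 77.2 and 40.0 FPKM in the NC pigs and at 210.7, 147.1 and 171.7 FPKM in the HFCF pigs. Here the HFCF pigs were more alike than for CTSD, CTSS or CTSC, and HFCF 2 rather than HFCF 3 was the lowest. The ratio of means was 3.22, from 54.9 ± 19.6 to 176.5 ± 32.1 FPKM (SD, n = 3 each), and the log2 fold change was 1.73 (SE 0.27, 95% interval 1.10 to 2.36, limma adjusted p = 0.0053). It stayed called without HFCF 1, at 1.59 (adjusted p = 0.0154).

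Cathepsin Z, also named cathepsin X, is a carboxypeptidase that removes single residues from the carboxyl terminus. CTSZ (ENSSSCG00000007522) gave 136.8, 101.1 and 152.4 FPKM in the NC pigs and 614, 335 and 237 FPKM in the HFCF pigs. No HFCF value fell among the NC values, with HFCF 3 nearest to them. The means were 130.1 ± 26.3 and 395.5 ± 195.6 FPKM (SD, n = 3 each), and the log2 fold change was 1.51 (SE 0.35, 95% interval 0.68 to 2.34, limma adjusted p = 0.0199). Without HFCF 1 it was 1.14 and still called (adjusted p = 0.0242), but the call was lost without NC 1 (1.56, adjusted p = 0.0661) and without NC 2 (1.34, adjusted p = 0.0645).

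Cathepsin B is both an endopeptidase and a carboxypeptidase and is among the most abundant cysteine proteases of lysosomes. For CTSB (ENSSSCG00000023666) the values were 107.1, 102.1 and 101.8 FPKM in the NC pigs and 285, 171.4 and 122.5 FPKM in the HFCF pigs. The NC pigs were nearly equal, and all HFCF pigs were higher. CTSB nevertheless did not pass the test, with a log2 fold change of 0.81 (SE 0.29, 95% interval 0.12 to 1.5, unadjusted p = 0.0274, limma adjusted p = 0.077), from 103.7 ± 3.00 to 192.9 ± 83.3 FPKM (SD, n = 3 each). It was 0.48 without HFCF 1 (adjusted p = 0.0992) and passed in 1 of 15 alternatives, the one without HFCF 3, at 1.09 (adjusted p = 0.0265). As a share of the summed FPKM of its library, CTSB in HFCF 3 (0.0371%) lay within the range of the NC pigs (0.0356% to 0.0383%).

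Cathepsin L is an endopeptidase that degrades elastin and collagen and takes part in invariant chain processing. CTSL (ENSSSCG00000010948) had the lowest mean level of the 9 genes in both groups, with 2.27, 2.35 and 1.73 FPKM in the NC pigs and 3.31, 4.17 and 2.83 FPKM in the HFCF pigs. The HFCF pigs were all higher by a small margin, and HFCF 2 was the highest. Its log2 fold change was 0.67 (SE 0.23, 95% interval 0.12 to 1.22, unadjusted p = 0.0243, limma adjusted p = 0.0709) and 0.69 without HFCF 1 (adjusted p = 0.116). It was not called in any of the 15 alternatives (adjusted p from 0.0604 to 0.712) and came to 0.13 after quantile normalization.

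The row named CTSL was not the only cathepsin L gene of the table. A further gene (ENSSSCG00000011171), which the RefSeq pig annotation names CTSV and lists with CTSL and CTSL1 among its older symbols, had higher levels, and it is described here after its values had been seen. CTSV measured 47.2, 52.9 and 37.5 FPKM in the NC pigs and 32.2, 44.2 and 52.5 FPKM in the HFCF pigs. The groups overlapped throughout, and the log2 fold change was -0.11 (SE 0.22, 95% interval -0.63 to 0.41, limma adjusted p = 0.742). The sum of CTSL and CTSV was 48.0 ± 8.14 FPKM in the NC group against 46.4 ± 10.1 FPKM in the HFCF group (SD, n = 3 each). How reads were divided between these related genes is not given in the sources used here, and both levels are uncertain to that extent.

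Cathepsin A is a serine carboxypeptidase that holds beta-galactosidase and neuraminidase 1 in a protective complex. CTSA (ENSSSCG00000007431) measured 63.3, 42.1 and 67.3 FPKM in the NC pigs and 101.1, 81.6 and 62.0 FPKM in the HFCF pigs. It was the one gene of the 9 in which the groups overlapped, since HFCF 3 lay below 2 NC pigs. The log2 fold change was 0.50 (SE 0.25, 95% interval -0.08 to 1.09, limma adjusted p = 0.17) and 0.33 without HFCF 1 (adjusted p = 0.364). Its complex partners also did not pass the test, with 0.13 for GLB1, the beta-galactosidase (limma adjusted p = 0.619), and 0.19 for NEU1, the neuraminidase (adjusted p = 0.677).

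Cystatin C, the inhibitor, had the highest level of the 9 genes in every pig. CST3 (ENSSSCG00000037360) measured 856, 697 and 912 FPKM in the NC pigs and 2901, 2412 and 1808 FPKM in the HFCF pigs. The groups were separate, and the lowest HFCF pig was well above the highest NC pig. Means of 821.5 ± 111.5 and 2374 ± 547 FPKM (SD, n = 3 each) gave a ratio of 2.89 and a log2 fold change of 1.51 (SE 0.24, 95% interval 0.95 to 2.08, limma adjusted p = 0.00561). Without HFCF 1 it was 1.36 (adjusted p = 0.0118). CST3 stood at place 29 to 46 among all genes in the NC libraries and at place 11, 16 and 22 in HFCF 1 to 3.

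**Figure D2:**
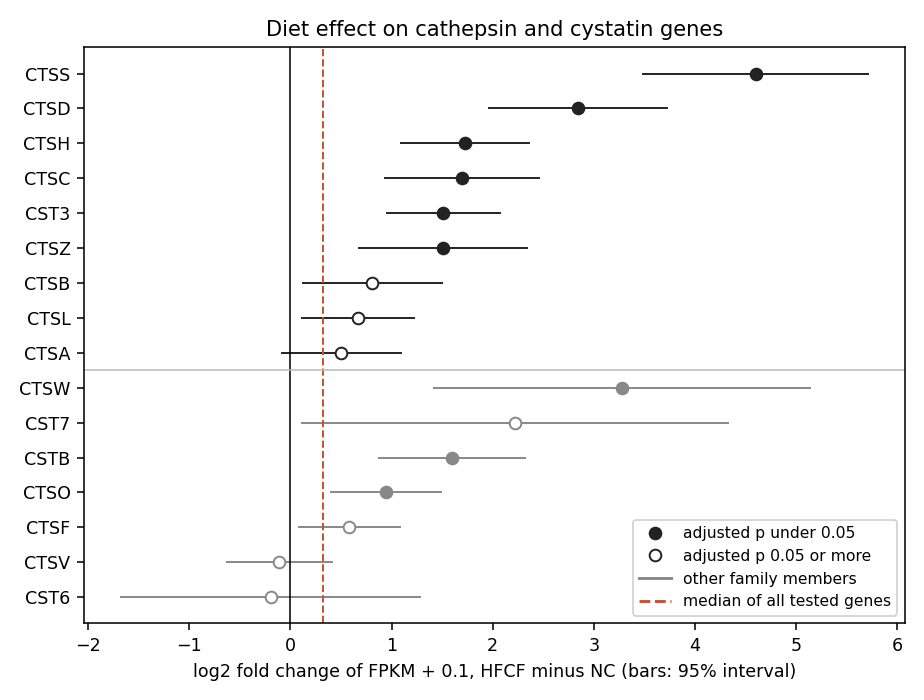
Log2 fold change of FPKM + 0.1, HFCF minus NC, with 95% interval from limma for the 9 genes (black, top) and for 7 other cathepsin and cystatin genes (grey), with filled points for an adjusted p under 0.05 and a dashed line at the median of all tested genes, 0.32. Among the 9 genes CTSS (4.60) and CTSD (2.84) lie farthest to the right, with the grey point of CTSW (3.28) between them in value, and the interval of CTSA (-0.08 to 1.09) includes 0. Also tested but not drawn were TINAGL1 (-0.96, called lower) and AHSG (1.12) and HRG (1.29), neither of them called.

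The size of the effect depended on how libraries were scaled to each other. The median over all tested genes moved from 0.32 to -0.01 after median-ratio scaling and to -0.07 after quantile normalization. Quantile normalization did not move the 9 genes alike, as CTSH went from 1.73 to 1.61 and CTSL from 0.67 to 0.13. Relative to the median of all genes, the effects were 4.28 for CTSS, 2.52 for CTSD, 1.4 for CTSH, 1.38 for CTSC, 1.19 for both CST3 and CTSZ, 0.49 for CTSB, 0.35 for CTSL and 0.18 for CTSA. All 9 genes had a positive log2 fold change in each of the 15 alternatives, scalings included. CTSC, CTSD, CTSH, CTSS and CST3 were called in all 15, and CTSZ in 13.

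In the NC group the order of mean levels was CST3, CTSD, CTSZ, CTSB, CTSA, CTSH, CTSC, CTSS and CTSL. Neighbours whose ranges overlapped were CTSD and CTSZ, CTSZ and CTSB, CTSA and CTSH, and CTSS and CTSL. In the HFCF group the order was CST3, CTSD, CTSZ, CTSB, CTSH, CTSA, CTSS, CTSC and CTSL. CTSH had passed CTSA, and CTSS had passed CTSC. There the ranges of CST3 and CTSD, CTSZ and CTSB, CTSB and CTSH, and CTSA and CTSS overlapped. CTSD was higher than CTSZ in each NC pig although their ranges overlapped, and in the HFCF group its lowest pig (689 FPKM) was above the highest CTSZ value (614 FPKM).

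The HFCF pigs also had an order among themselves. HFCF 1 was the highest of the 3 in 8 of the 9 genes, all but CTSL, and HFCF 3 the lowest in 8, all but CTSH. Among the 3505 genes called higher in the HFCF group, HFCF 1 was the highest HFCF pig in 57.7%, and among all tested genes in 42.0%. HFCF 3 was the lowest HFCF pig in 43.4% of the genes called higher and in 36.6% of all tested genes. The macrophage marker sum was likewise highest in HFCF 1, but HFCF 2 and 3 lay close together (1136 and 1075 FPKM). Single markers differed in which of these pigs was lower. CSF1R was at 39.0 and 48.4 FPKM in HFCF 2 and 3, and C1QC at 339 and 273 FPKM. The smooth muscle marker sum was lowest in HFCF 1 and highest of the HFCF pigs in HFCF 3.

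**Figure D3:**
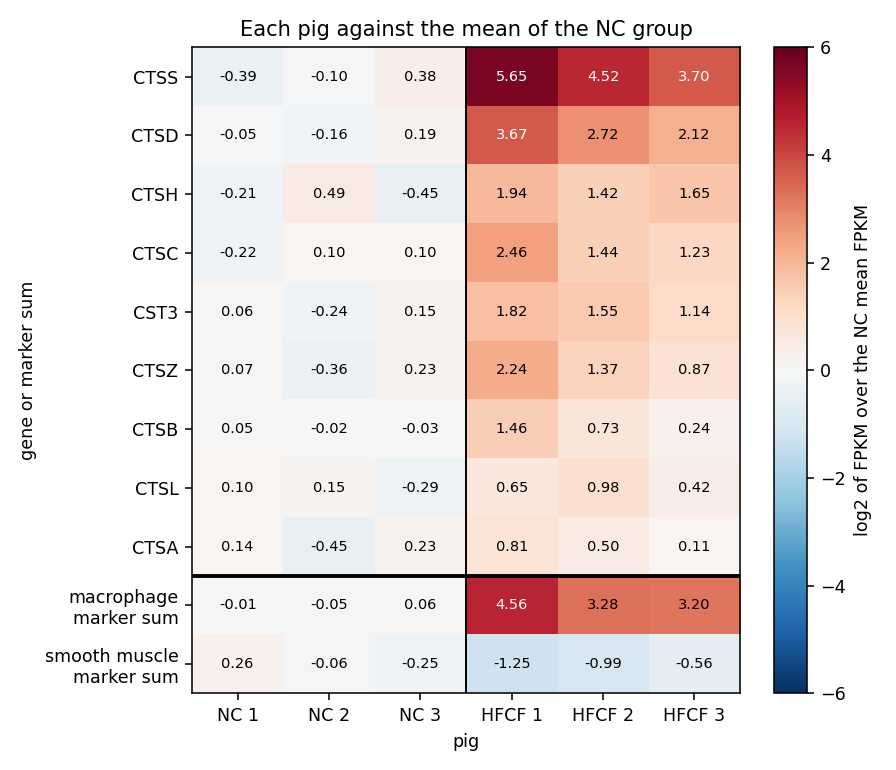
Log2 of the FPKM of each pig over the mean FPKM of the NC group for 9 genes and for the summed macrophage and smooth muscle markers, with the value printed in each cell, red for above and blue for below the NC mean. CTSS reads 5.65, 4.52 and 3.70 in HFCF 1 to 3 and CTSD 3.67, 2.72 and 2.12, next to 4.56, 3.28 and 3.20 for the macrophage markers and -1.25, -0.99 and -0.56 for the smooth muscle markers.

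The levels were also set against those of the macrophage markers within each library, a ratio that does not depend on scaling between libraries and was chosen after the values had been seen. CTSS per CD68 was 0.512, 0.557 and 0.561 in the NC pigs, compared with 0.470, 0.494 and 0.324 in the HFCF pigs. CTSS therefore moved nearly in step with CD68, with a difference of -0.36 in the log2 ratio, though each HFCF ratio was below each NC ratio. Such a ratio depends on the marker chosen. The diet effect was 4.99 for CD68 and ran from 1.31 for MRC1 to 5.22 for MSR1 over the 14 macrophage markers. Ratios to single markers other than CD68 were not computed. CTSD per CD68 was 42.2, 34.6 and 32.0 in the NC pigs, compared with 7.78, 9.20 and 7.04 in the HFCF pigs, a difference of -2.18. Of the other 7 genes, the smallest such difference was -3.29 for CTSH and the largest -4.52 for CTSA, so that their levels per unit of CD68 were much lower in the HFCF group. Against the sum of the 14 macrophage markers the difference was 0.98 for CTSS, -0.84 for CTSD and between -1.96 and -3.18 for the other 7 genes. These ratios are descriptions, without a test.

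The RNA levels of proteases and inhibitor were compared as the summed FPKM of cysteine cathepsins per FPKM of CST3. This ratio of RNA levels gives neither protein amounts nor protease activity, which were not examined here. The sum took the 6 found among the genes sought at the start (CTSB, CTSC, CTSH, CTSL, CTSS and CTSZ). It left out CTSF, CTSO, CTSV and CTSW, which also had values in these libraries. Of these, CTSF measured 59.6, 58.3 and 79.7 FPKM in the NC pigs and 77.2, 121.1 and 99.4 FPKM in the HFCF pigs. The ratio with CTSF, CTSO or CTSW added was not tested. The sum of the 6 was 299.5, 290.0 and 304.2 FPKM in the NC pigs and 1262, 727 and 576.9 FPKM in the HFCF pigs. The summed cathepsins and cystatin C were thus both higher in each HFCF pig. Per CST3, the sum was 0.350, 0.416 and 0.334 in the NC pigs, compared with 0.435, 0.301 and 0.319 in the HFCF pigs, so that HFCF 1 had the highest and HFCF 2 and 3 the lowest ratios of all 6 pigs. On the log2 scale the ratio was -1.45 ± 0.17 in the NC group and -1.53 ± 0.28 in the HFCF group (SD, n = 3 each), a difference of -0.07 (exact two-sided permutation test, p = 0.6, smallest possible 0.1). Without HFCF 1 the difference was -0.23, with both remaining HFCF pigs below all NC pigs (exact permutation p = 0.2, the smallest that 3 pigs against 2 gave). It was 0.18 when CTSB was left out (exact permutation p = 0.5).

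CTSB, CTSH and CTSZ made up most of the sum, and the single genes differed in their ratio to CST3. With only CTSL and CTSS summed, the log2 ratio to CST3 was 2.30 higher in the HFCF group (exact permutation p = 0.1, the smallest possible). This depended on the choice of genes, since the difference was -0.34 when CTSV was added to these genes (exact permutation p = 0.3) and -0.33 when CTSB was added (exact permutation p = 0.3), both choices made after seeing the data. CTSS per CST3 alone was 0.00218, 0.00328 and 0.00349 in the NC pigs, compared with 0.0423, 0.0233 and 0.0176 in the HFCF pigs. CTSD per CST3 was 0.180, 0.204 and 0.199 in the NC pigs, compared with 0.700, 0.435 and 0.381 in the HFCF pigs. Both ratios were higher in every HFCF pig. CTSA per CST3 was 0.0739, 0.0605 and 0.0738 in the NC pigs, compared with 0.0349, 0.0338 and 0.0343 in the HFCF pigs, lower and nearly equal in all 3 of them. The log2 ratio to CST3 was also lower without overlap for CTSB (-0.71) and CTSL (-0.82), and it overlapped between the groups for CTSH (0.21), CTSC (0.20) and CTSZ (-0.00). With 3 pigs against 3 no exact test of such a ratio can go below p = 0.1, and the ratios of single genes are given as values.

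Together the 9 genes took 0.491%, 0.408% and 0.538% of the summed FPKM in the NC pigs, compared with 1.86%, 1.27% and 0.95% in the HFCF pigs. Each HFCF pig devoted a larger share to them than any NC pig. The difference of means was 0.881 percentage points (0.479 ± 0.0659% against 1.36 ± 0.461%, SD, n = 3 each, exact two-sided permutation p = 0.1, the smallest possible), and 0.631 without HFCF 1. CST3 alone made up 0.295% of the NC and 0.707% of the HFCF sum on average, and CTSD 0.0570% and 0.373%. Mitochondrially encoded genes took 4.65% to 6.93% in the NC and 9.02% to 13.4% in the HFCF libraries, and when they were left out, the difference was 1.05 percentage points.

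**Figure D4:**
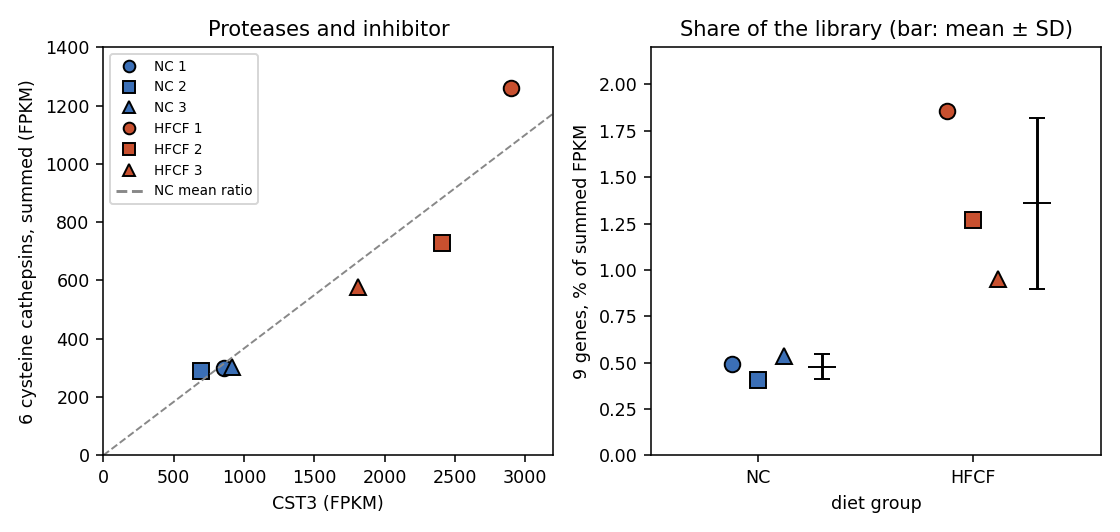
Left, summed FPKM of 6 cysteine cathepsins against FPKM of CST3 in each pig, with a dashed line at the mean ratio of the NC group, 0.367; right, FPKM of 9 genes as percent of the summed FPKM of each library, with mean and SD of each group. HFCF 1 lies above the line and HFCF 2 and 3 below it, all outside the range of the NC ratios (0.334 to 0.416), and their shares (0.95% to 1.86%) are all above those of the NC pigs (0.408% to 0.538%).

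Within the KEGG lysosome pathway, which holds the 8 cathepsins but not CST3, 108 genes were tested, 48 were called higher and 3 lower, and the median log2 fold change was 0.63. Among all tested genes 22.8% were called higher and 6.16% lower, with a median of 0.32. The 48 include CTSS, CTSD, CTSH, CTSC and CTSZ. By log2 fold change CTSS stood at place 5, CTSD at 8, CTSH at 17, CTSC at 18 and CTSZ at 22 of the 108. CTSB (47), CTSL (53) and CTSA (65) lay near the middle of the pathway. By mean level CTSD was at place 1, CTSZ at 4, CTSB at 7, CTSH at 10 and CTSA at 15, whereas CTSS was at 30, CTSC at 60 and CTSL at 91.

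**Figure D5:**
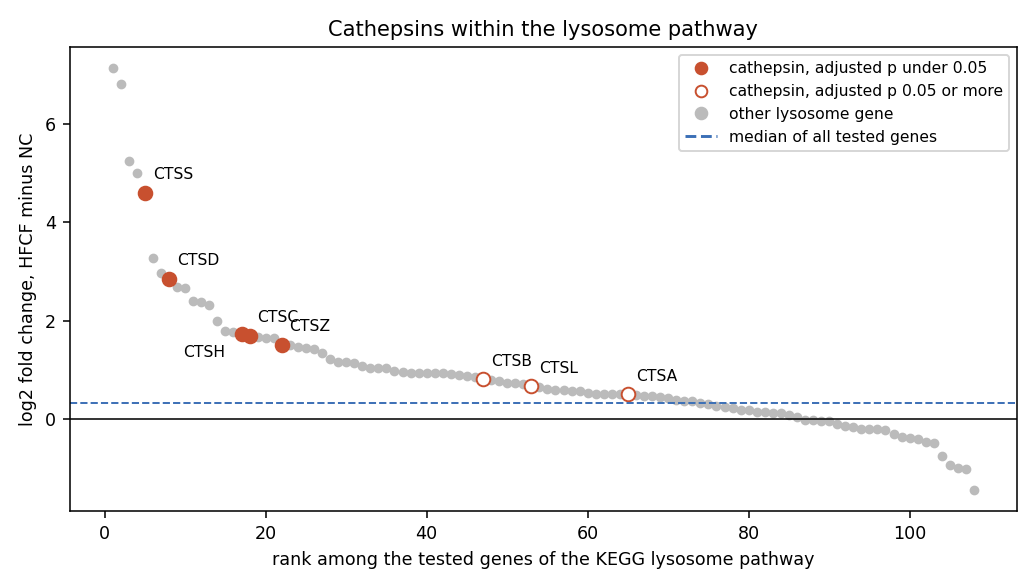
Log2 fold change, HFCF minus NC, of the 108 tested genes of the KEGG lysosome pathway in descending order, with the 8 cathepsins in red, filled for an adjusted p under 0.05, and a dashed line at the median of all tested genes. The 5 called cathepsins lie within the first 22 places, and CTSB, CTSL and CTSA between places 47 and 65.

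Counts in the lists of related genes that follow stand beside 22.8% of all tested genes called higher and 6.16% called lower, and nothing is read from a count near these shares. Of 5 other cathepsin genes and relatives tested, 2 were called higher and 1 lower. CTSW, the cathepsin of cytotoxic lymphocytes, measured 0.322, 0.555 and 0.257 FPKM in the NC pigs and 17.3, 1.97 and 2.41 FPKM in the HFCF pigs. HFCF 1, which also had the highest sum of T and NK cell markers, was far above the rest. The log2 fold change of CTSW was 3.28 (limma adjusted p = 0.0221) and 2.30 without HFCF 1 (adjusted p = 0.0104). It was called in 11 of 15 alternatives, over which it ranged from 2.05 to 3.84. CTSO, a little studied cysteine cathepsin, rose by 0.94 on the log2 scale (adjusted p = 0.0235), but the call held in only 7 of 15 alternatives. TINAGL1, a secreted relative of the cathepsins without protease activity, measured 89.3, 88.4 and 63.3 FPKM in the NC pigs and 42.8, 37.7 and 41.9 FPKM in the HFCF pigs, and fell by 0.96 (limma adjusted p = 0.00861), called in all 15 alternatives. CTSF, named after its values had been seen, was abundant but was not called, with 0.58 (adjusted p = 0.0798), or 0.75 without HFCF 1 (adjusted p = 0.0401).

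Among 5 other cystatins tested, 1 was called higher. CSTB, the cytosolic inhibitor cystatin B, measured 84.2, 83.1 and 73.4 FPKM in the NC pigs and 400, 206.1 and 171.8 FPKM in the HFCF pigs. The groups were separate, and the log2 fold change of 1.59 (SE 0.31, limma adjusted p = 0.0105) was close to that of CST3. Without HFCF 1 it was 1.23 (adjusted p = 0.00544). CST7, cystatin F, which controls cathepsin C in cytotoxic and myeloid cells, was low, with 0.271, 0.108 and 0.461 FPKM in the NC pigs and 6.59, 0.453 and 1.08 FPKM in the HFCF pigs. Only HFCF 1 stood clearly apart, and the log2 fold change of 2.22 was not called (limma adjusted p = 0.104), nor was the value of 1.2 without HFCF 1 (adjusted p = 0.168).

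Of 12 genes that process cathepsins or sort them to the lysosome, 4 were called higher and 1 lower. GGA3, an adaptor that loads receptor-bound enzymes into vesicles leaving the Golgi, measured 0.902, 0.992 and 1.10 FPKM in the NC pigs and 7.87, 5.53 and 7.53 FPKM in the HFCF pigs, a log2 fold change of 2.68 (limma adjusted p = 0.00082). Its relatives GGA1 (0.22, adjusted p = 0.314) and GGA2 (-0.21, adjusted p = 0.462) were not called. Of the enzymes that make the mannose 6-phosphate tag, NAGPA rose by 1.65 (adjusted p = 0.00386), and GNPTAB by 0.85 (adjusted p = 0.0378), called in 5 of 15 alternatives and not without HFCF 1 (0.67, adjusted p = 0.0842). GNPTG, of the same step and named after its values had been seen, rose by 0.71 (limma adjusted p = 0.0135). It was called in 13 of 15 alternatives, among them the one without HFCF 1 (0.71, adjusted p = 0.0303). SORT1, the sorting receptor sortilin, measured 13.2, 16.7 and 14.7 FPKM in the NC pigs and 4.27, 7.15 and 5.09 FPKM in the HFCF pigs. It fell by 1.45 (limma adjusted p = 0.0051). The receptors M6PR (0.60, adjusted p = 0.101) and IGF2R (-0.48, adjusted p = 0.217) and LGMN, the legumain that cleaves cathepsin precursors (1.34, adjusted p = 0.0697), did not pass the test.

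Partners and substrates of the cathepsins gave 2 genes called higher of 9. CD74, the invariant chain cut by cathepsin S, measured 298, 368 and 241 FPKM in the NC pigs and 1058, 744 and 811 FPKM in the HFCF pigs, and rose by 1.53 (limma adjusted p = 0.00442). GZMA, a granzyme activated by cathepsin C, rose by 4.09 (adjusted p = 0.0191), from 0, 0.0628 and 0.124 FPKM to 12.8, 1.05 and 1.10 FPKM, with HFCF 1 highest, and by 2.93 without HFCF 1 (adjusted p = 0.00956). With NC values near 0 its log2 fold change ran from 1.88 to 5.75 over 15 alternatives, 12 of which called it. The matrix substrates ELN (-0.48, adjusted p = 0.211), COL1A1 (-0.17, adjusted p = 0.76) and COL1A2 (-0.10, adjusted p = 0.874) did not pass the test.

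Of 7 transcription factors linked to lysosomal and cathepsin genes, 3 were called higher. SPI1, the myeloid factor PU.1, measured 1.95, 3.13 and 2.95 FPKM in the NC pigs and 128.4, 50.5 and 40.8 FPKM in the HFCF pigs, a log2 fold change of 4.56 (limma adjusted p = 0.00117), near that of CTSS, and of 4.06 without HFCF 1 (adjusted p = 0.0011). MITF rose by 1.39 (adjusted p = 0.0296), called in 7 of 15 alternatives and not without HFCF 1 (1.12, adjusted p = 0.0708). TFEC, from 0 to 0.0581 FPKM in the NC pigs and from 0.73 to 1.47 FPKM in the HFCF pigs, was the other one called (3.15, adjusted p = 0.00257, with a range of 0.98 to 5.14 over the 14 alternatives in which it was tested, all of which called it). TFEB (0.35, adjusted p = 0.11) and TFE3 (0.02, adjusted p = 0.933), relatives of MITF that switch on lysosomal genes, did not pass. IRF8 measured 98.2, 77.5 and 69.4 FPKM in the NC pigs and 68.5, 114.0 and 44.3 FPKM in the HFCF pigs. It was not called (-0.20, limma adjusted p = 0.68). NFATC1 was lower in each HFCF pig than in any NC pig but was not called (-0.68, limma adjusted p = 0.102). Without HFCF 1 it was called lower (-0.91, adjusted p = 0.0478).

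Other lysosomal proteins were called higher in 6 of 11 cases. The largest was LIPA, the acid lipase that hydrolyses cholesteryl esters, with 4.03, 5.69 and 3.79 FPKM in the NC pigs and 51.6, 24.6 and 18.7 FPKM in the HFCF pigs, a rise of 2.67 (limma adjusted p = 0.00386), or 2.25 without HFCF 1 (adjusted p = 0.00352). NPC2, which carries cholesterol out of the lysosome, rose by 1.47 (adjusted p = 0.00592), the membrane protein LAMP2 by 1.14 (adjusted p = 0.00429) and the glucuronidase GUSB by 1.03 (adjusted p = 0.0187), the last called in 9 of 15 alternatives. The membrane protein LAMP1 did not pass the test (-0.22, adjusted p = 0.467).

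Of 7 proteases and inhibitors of the other main matrix-degrading family, 2 were called higher and 1 lower. MMP9, a gelatinase, measured 0.131, 0 and 0.410 FPKM in the NC pigs and 31.1, 8.38 and 2.17 FPKM in the HFCF pigs, and rose by 5.21 (SE 0.99, limma adjusted p = 0.0102), or 4.27 without HFCF 1 (adjusted p = 0.0189), with a range of 3.07 to 6.62 over 15 alternatives that all called it. Of the tissue inhibitors of metalloproteinases, TIMP1 rose by 0.65 (adjusted p = 0.0326) and TIMP3 fell by 0.72 (adjusted p = 0.0475). The call held in 3 of 15 alternatives for TIMP1 and in 6 for TIMP3, and neither was called without HFCF 1, with log2 fold changes that had not shrunk (0.69, adjusted p = 0.0508, and -0.72, adjusted p = 0.0893).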

How the data were processed

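The authors trimmed paired-end reads with cutadapt 1.9, checked them with FastQC, aligned them with HISAT2, quantified them with StringTie and deposited FPKM values, as stated in the methods and the submitters' processing notes. Values of 0.0001 FPKM were read as 0, and no sample column was left out. The 10 genes and the lists of related genes and markers were chosen with earlier results of these data known. From the deposited FPKM, log2(FPKM + 0.1) was taken for those 15384 genes whose mean reached 0.1 FPKM. Diet was fitted with limma 3.58.1 in R 4.3.3, using eBayes with a trend, and p-values were adjusted by Benjamini-Hochberg over the genes tested. Ratios and shares were compared with exact two-sided permutation tests in scipy 1.17.1. The fit was tested on simulated data.

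All genes sought were named where found. Of each related list up to 4 called genes with a mean of at least 1 FPKM and the largest change were named, filled up to 2 by level where fewer than 2 were called, and genes outside this rule were added after their values had been seen. Where a name had several rows, the row with the highest mean was used, as for GZMA. Names came from the table and, for CTSV, from the RefSeq pig annotation. The methods name an earlier genome build than that annotation, so no coordinates are given. Replicates were pigs of a group, and replicate numbers were treated as names only. As alternatives, the pseudocount was set to 1 or 0.01, the filter was dropped or raised to a mean of 1 FPKM, and the trend was left out of eBayes. Libraries were rescaled to TPM, by median ratios or by quantiles, left out in turn, or given a replicate block.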

Additional observations from a re-analysis of the deposited data

How the results depend on the processing

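Of 135 results for single genes (9 genes under 15 alternatives), 132 kept their direction and their side of the threshold, 2 lost the call (both CTSZ), 1 gained it (CTSB) and none reversed. The number of the 9 genes called was 6 throughout, except with 1 library left out, where it was 5 to 7. Their median log2 fold change of 1.51 was 1.16 after median-ratio scaling and 1.32 to 1.74 with 1 library left out. Over all tested genes, 3505 higher and 948 lower calls became 2035 and 1982 after median-ratio scaling, 1748 and 1782 after quantile normalization, and 2146 and 1539 after rescaling to TPM, and with 1 library left out they ranged from 1979 to 2815 and from 442 to 786. The lowest of both, 1979 and 442, came without NC 1, and without NC 2 there were 542 lower. The log2 ratio of cysteine cathepsins to CST3 (-0.07) was 0.18 without CTSB, 2.30 for CTSL and CTSS alone, -0.20 with CTSV added, -0.34 for CTSL, CTSS and CTSV, -0.33 for CTSB, CTSL and CTSS (the last 3 chosen after seeing the data), and -0.23 to 0.03 with 1 library left out. The difference in the share of summed FPKM (0.881 percentage points) was 0.631 to 1.09 with 1 library left out. The causes were not tested.

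Same-numbered libraries did not deviate together (r from -0.08 to 0.02, against -0.07 to 0.13 for different numbers). No pairing by number was thus seen, though a pairing that touched few genes could be missed this way. A replicate block gave 2232 higher and 540 lower calls over all genes and the same 6 called genes of the 9, with a median of 1.51. Depth is unknown, and with 3 pigs per group an exact test cannot go below p = 0.1.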

Other observations

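The genes whose pattern over the 6 libraries was most like the mean log2 level of the 9 genes, by Pearson's r among 9573 other named genes with a mean of at least 1 FPKM, were CANT1 (0.999), ARHGAP45 (0.998), FCRL1 (0.998, listed at 0 in the NC pigs), HNMT (0.998) and RASAL3 (0.997). CANT1, a nucleotidase, measured 4.25, 4.37 and 4.38 FPKM in the NC pigs and 10.3, 8.51 and 7.0 FPKM in the HFCF pigs. HNMT, the enzyme that methylates histamine, measured 2.27, 2.09 and 2.42 FPKM in the NC pigs and 46.7, 23.4 and 15.7 FPKM in the HFCF pigs. With 6 libraries in 2 groups such values are high for many genes, since 873 of the 9573, or 9.12%, had an r over 0.95, and they are given as a description.

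The level of CTSV per unit of CTSL, the pair of cathepsin L genes, was 20.8, 22.5 and 21.7 in the NC pigs, compared with 9.72, 10.6 and 18.6 in the HFCF pigs. HFCF 3 was the closest to the NC pigs.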
